A study of Mus musculus with 7 samples.

Results

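The comparison described here asked how the transcriptome of cloned mouse embryos made with vitrified oocytes differed when the embryos had also been treated with melatonin, using 5 of the 7 libraries of the series. In somatic cell nuclear transfer (SCNT) the nucleus of a body cell, here a cumulus cell, is placed in an oocyte whose own chromosomes have been removed. The CROC+K group (3 libraries, called untreated here) came from SCNT embryos whose recipient oocytes had been vitrified and warmed, and the CROC+K+M group (2 libraries) from embryos of the same make exposed to 10 µM melatonin. All embryos, those of both groups and of the 2 fresh-oocyte libraries (FOC+K), were of the B6D2F1 hybrid strain, wild type, and injected with mRNA of Kdm4a, a demethylase of histone H3 lysine 9. The labels of every library give the 2-cell stage, whereas the treatment protocol, the same for all samples, names blastocysts as well and does not say which embryos made up which library. It also names a vehicle without saying for each sample whether it was given. Each library was made from total RNA of 50 to 100 pooled embryos with an RNA integrity number above 7.0. The labels call the libraries biological replicates but do not give separate sessions or donors, so the p-values here measure the spread between these pools. In pools of whole embryos, fewer cells of a type and less RNA per cell cannot be told apart.

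Melatonin is a tryptophan-derived hormone of the pineal gland that acts through the membrane receptors MT1 and MT2 and that, with its metabolites, also scavenges oxygen and nitrogen radicals. It is widely added to the culture of oocytes and early embryos, where mitochondria are inherited from the oocyte and are a main source of such radicals. Around the 2-cell stage of the mouse, stored maternal mRNA is broken down while the embryonic genome starts to be transcribed, and in SCNT embryos histone H3 lysine 9 methylation carried over from the donor nucleus is a known barrier to that start.

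Before any comparison, the libraries were set against markers of stage and cell type. The first melatonin library stood apart. The 10 trophectoderm markers summed to 26236 FPKM (mapped fragments scaled by transcript length and library total) in it and to 43.9 in the second melatonin library, against 120.1, 38.4 and 64.9 in the 3 untreated ones. All 10 of these markers reached 1 FPKM in the first melatonin library and 4 or 5 of them in the other 4 libraries. Cdx2, the transcription factor that defines the trophectoderm, stood at 6.97 FPKM there and was listed at 0 in every other library. Fabp3, a fatty acid-binding protein of that lineage, made up most of the sum at 24404 FPKM, against 0.322 in the second melatonin library. Of the 8 markers of the labelled 2-cell stage, 5 or 6 reached 1 FPKM in each of the 5 libraries, the first melatonin library included. Tcstv1 and Tcstv3 were listed at 0 throughout. Since every library is labelled 2-cell, this count cannot tell stages apart. The sums of the 8 markers were 119.4, 519.5 and 757.6 FPKM in the untreated libraries and 249.3 and 126.7 in the melatonin ones. The part of the trophectoderm transcripts in the differences below was not tested, and each difference is therefore also given without the first melatonin library.

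**Figure D1:**
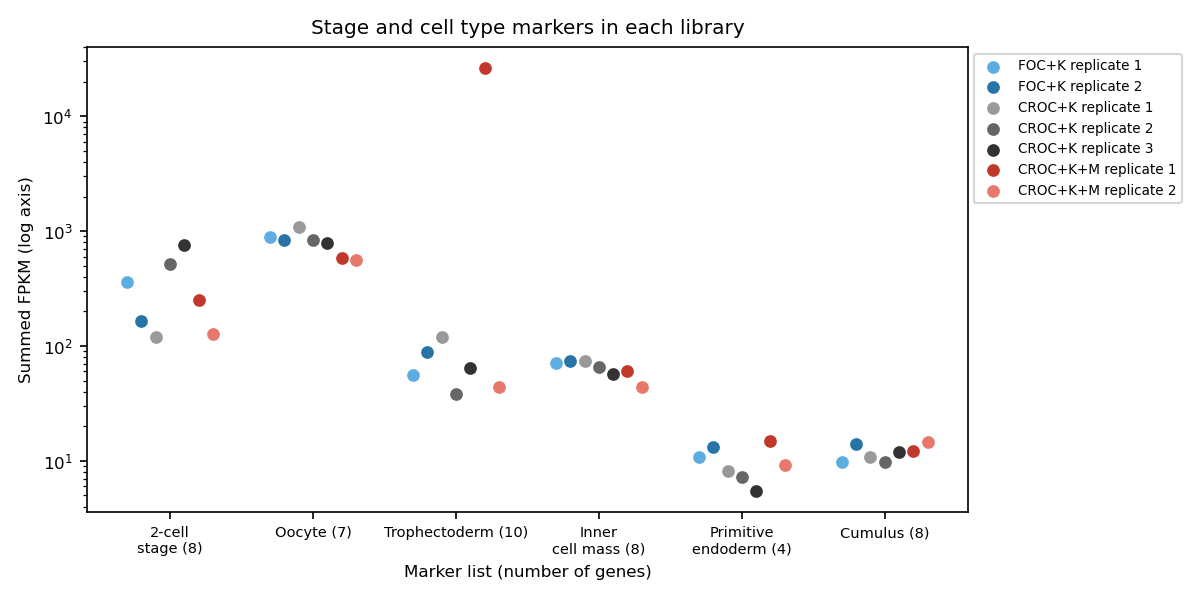
Summed FPKM (log axis) of 6 marker sets in each library, with the number of markers found in the table in brackets; 1 point is 1 library. The first melatonin library holds 26236 FPKM of trophectoderm markers and every other library at most 120.1. The oocyte marker sums of both melatonin libraries lie below those of all 3 untreated ones.

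The summed FPKM of the 7 oocyte markers was lower in both melatonin libraries, at 581.4 and 558.1 against 1075, 828.9 and 793.4. Bmp15 was the largest part of the sum, at 289 and 299 FPKM against 788, 479 and 422. Zp2 and Gdf9 were also below all untreated libraries in both, whereas Zp1, Zp3, Nlrp5 and Ooep overlapped them. Zp3 in the second melatonin library (71.7) and Ooep in the first (161) exceeded every untreated value. Kdm4a, whose injected mRNA cannot be told apart here from the transcript of the embryo, stood at 497, 4051 and 4949 FPKM in the untreated libraries and 2797 and 689 in the melatonin ones. Its spread within each group exceeded the difference between the groups, which was -0.63 ± 1.06 (log2, ± SE) and -1.64 without the first melatonin library, but 0.38 without the second. The first untreated library also differed from the other two untreated ones in Rn45s, the ribosomal RNA precursor, at 2114 FPKM against 265.7 and 237.2; the melatonin libraries held 224.1 and 175.4. FPKM summed to between 575457 and 1017995 per library over these 5. The number of sequenced fragments is unknown; the steps between low FPKM values put the libraries within 1.06 to 1.56 times the depth of the first fresh-oocyte library.

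Among 12272 genes with 1 FPKM or more in at least 2 of the 7 libraries, 0 (0%) passed a Benjamini-Hochberg adjusted p of 0.05 in limma on log2(FPKM + 1), with a lowest adjusted value of 0.108. Robust moderation and array weights in limma gave 0 as well. The weights of the 2 melatonin libraries were equal, at 0.513 each, so they could not set the first apart from the second. Before adjustment, 1281 genes (10.4%) had a p under 0.05, 821 with a higher (6.69%) and 460 with a lower mean (3.75%) under melatonin. Over all genes the melatonin mean was higher in 6634 (54.1%) and lower in 5638 (45.9%). No gene named below therefore passed the test, and all differences are given as values. In 1508 genes (12.3%) both melatonin libraries lay above all 3 untreated ones, and in 1369 (11.2%) both lay below. These counts depend on the scaling between libraries. With every library brought to the same FPKM sum they were 822 above and 2072 below. Of the separated genes 28.4% instead of 52.4% were then higher. With quantile normalization they were 1099 and 1893 (36.7% higher), and with median ratio scaling 1506 and 1379 (52.2% higher). The median difference of all genes was 0.06 as deposited. It moved by -0.20 with equal sums, by -0.15 with quantile normalization and by 0.0016 with median ratio scaling. The values below are on the deposited scaling. Without the first untreated library, which leaves fewer values to separate, 2838 genes lay above and 2688 below, and 1997 had an unadjusted p under 0.05. Without the first melatonin library, 492 genes were higher and 537 lower at an unadjusted p under 0.05; without the second, 658 genes (5.36%) passed the adjusted threshold, 646 of them higher (5.26%), and the contrast is then between the trophectoderm-rich library and the untreated ones.

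The 2 melatonin libraries differed in how far they lay from the untreated ones mainly on the higher side. A lower value is bounded by the floor of the log2(FPKM + 1) scale and a higher one is not, so the sides are not directly comparable. In 1138 of the 1508 higher genes (75.5%) they were within 1 log2 unit of each other, with a median difference from the untreated mean of 1.05 in the first and 0.73 in the second. In 1321 of the 1369 lower genes (96.5%) they were that close, with medians of -0.65 and -0.61. Genes whose nearest melatonin and untreated libraries were 1 log2 unit or more apart numbered 82 on the higher side (0.668%) and 21 on the lower side (0.171%).

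Among the genes chosen by the size and steadiness of that separation, the widest was that of Gtsf1l, a relative of the gametocyte-specific factor Gtsf1 that takes part in piRNA silencing. Gtsf1l measured 3.78, 1.77 and 1.27 FPKM in the untreated libraries and 44.2 and 38.7 in the melatonin libraries, with 7.68 and 5.58 in the fresh-oocyte ones. Both melatonin values were above 10 times the highest untreated one, and the difference was 3.77 ± 0.40 (log2 on the FPKM + 1 scale, which understates changes of low genes; limma, adjusted p = 0.108) and 3.67 ± 0.52 without the first melatonin library. Snhg20, a long noncoding RNA that hosts a small nucleolar RNA, measured 36.1, 30.5 and 33.7 FPKM without melatonin and 199.6 and 162 with it. The groups were far apart and each was tight, with a difference of 2.40 ± 0.25 (limma, adjusted p = 0.108) and 2.25 ± 0.29 with the second melatonin library alone. In every other leading gene the limma adjusted p was 0.408.

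Several leading higher genes, chosen for their separation, act in protein folding and redox chemistry. In the whole lists given further below, 5 of 41 chaperone genes lay above all untreated libraries and 2 below. Of 51 genes of superoxide, peroxide and glutathione defence 9 lay above and 6 below, against 12.3% and 11.2% of all genes. Hspbp1, a co-chaperone that releases nucleotide from Hsp70, measured 2.85, 1.12 and 1.37 FPKM untreated and 18.4 and 16.1 with melatonin. Its melatonin libraries were close to each other and well above the untreated ones, a difference of 2.76 ± 0.40 and 2.67 without the first melatonin library. Hikeshi, listed as l7Rn6, which carries Hsp70 into the nucleus, measured 86.5, 68.1 and 67.7 FPKM against 383 and 189. Both melatonin libraries were higher, the first the more so (1.86 ± 0.35, or 1.35 without it). Glrx3, a glutaredoxin that handles iron-sulfur clusters, measured 11.7, 14.2 and 11.3 FPKM against 59.9 and 35.4, and Blvra, biliverdin reductase A, which makes the antioxidant bilirubin, 8.31, 4.005 and 7.66 against 47.3 and 26.6. For both genes the groups did not overlap, with differences of 1.82 ± 0.32 and 2.30 ± 0.42, and of 1.45 and 1.90 with the second melatonin library alone.

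Genes of mitochondrial proteins formed another part of the leading genes. Mcee, methylmalonyl-CoA epimerase, measured 12.1, 10.3 and 10.6 FPKM untreated and 32.9 and 33.2 with melatonin, nearly the same in both melatonin libraries (1.504 ± 0.27, 1.51 without the first). Idh3b, a subunit of the NAD-dependent isocitrate dehydrogenase of the citric acid cycle, measured 1.54, 1.88 and 1.17 FPKM against 85.4 and 9.58. Here most of the mean difference of 3.59 ± 0.78 came with the first melatonin library, and the second alone gave 2.07 ± 0.43. Ccdc58, which encodes a mitochondrial protein, measured 75.2, 25.1 and 34.9 FPKM against 239.6 and 189. Its first untreated library was the nearest to the melatonin ones, and the difference was 2.37 ± 0.44 (2.19 without the first melatonin library).

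The remaining higher genes had varied roles. Ctnnb1, which encodes beta-catenin of cell junctions and Wnt signalling, measured 11.3, 13.3 and 11.8 FPKM untreated against 47.1 and 32.6, a narrow untreated group and 2 clearly higher libraries (1.61 ± 0.29, 1.36 without the first). H2-K1, a classical major histocompatibility class I heavy chain with close paralogs that can share reads, measured 1.98, 3.15 and 1.99 FPKM against 12.02 and 10.97 (1.91 ± 0.34, 1.84 without the first). Rhoc, a small GTPase gene of the actin cytoskeleton, was below 1 FPKM in all untreated libraries, at 0.234, 0.475 and 0, and measured 28.5 and 5.19 with melatonin (3.47 ± 0.63, 2.34 without the first). Apoc1, an apolipoprotein, measured 16.1, 19.5 and 11.8 FPKM against 447 and 70.5, so that the first melatonin library was several times the second and the difference of 3.44 ± 0.70 dropped to 2.12 without it. Sssca1 and Surf2 completed the set, with differences of 2.54 and 3.12, and 2.05 and 2.69 with the second library alone.

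The 14 leading lower genes had differences of -2.24 to -0.98, against 1.504 to 3.77 for the 15 higher ones. Prlr, the prolactin receptor, measured 18.5, 21.2 and 20.7 FPKM untreated and 6.46 and 7.49 with melatonin. Neither group spread much and they were well apart (-1.41 ± 0.28, -1.31 without the first melatonin library; pairs of values in brackets below follow this order). Zp2, a zona pellucida glycoprotein gene transcribed in the oocyte, measured 25.5, 29.6 and 32.3 FPKM against 12.05 and 10.9 (-1.27 ± 0.28, -1.34). Mapk3, which encodes the kinase ERK1, measured 97.98, 85.02 and 69.1 FPKM against 32.5 and 37.6 (-1.23 ± 0.26, -1.12). In these genes both melatonin libraries were near the same level, below every untreated one.

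Genes of the cytoskeleton and of secretory protein handling were also among them. Tuba3a, an alpha-tubulin gene with a near-identical copy that can share its reads, measured 13.9, 11.5 and 15.7 FPKM against 3.98 and 5.18, and Cep85l, a centrosomal protein gene, 19.5, 15.7 and 14.9 against 3.72 and 5.46. Ppp1r12a, the targeting subunit of myosin phosphatase, measured 122, 142 and 104 FPKM against 58.99 and 53.7. The differences of these 3 genes were -1.39, -1.67 and -1.10, and -1.24, -1.45 and -1.17 without the first melatonin library. Edem2, a mannosidase-like protein that sorts misfolded glycoproteins for degradation, measured 53.3, 54.4 and 59.6 FPKM against 27.1 and 22.2 (-1.15 ± 0.25, -1.29), and Slc35a5, of the nucleotide-sugar transporter family, 13.5, 18.4 and 14.3 against 6.23 and 4.62 (-1.35 ± 0.30, -1.54). Mfap2, a microfibril-associated glycoprotein gene, was the most abundant at 373, 378 and 425 FPKM against 209.9 and 188 (-0.98 ± 0.24, -1.06). The orphan nuclear receptor Nr2e1 had a first untreated library above the other two, at 40.7, 23.2 and 21.01 FPKM against 10.5 and 8.85 (-1.40 ± 0.35, -1.51). Tmem182 had the largest mean difference on this side, with 10.98, 18.9 and 16.5 FPKM against 3.69 and 1.49 (-2.24 ± 0.39, -2.69), and D7Ertd443e (-1.51, -1.19) and Rims1, a presynaptic scaffold gene (-1.16, -1.12), completed it with the 2-cell gene Tdpoz4 described below.

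**Figure D2:**
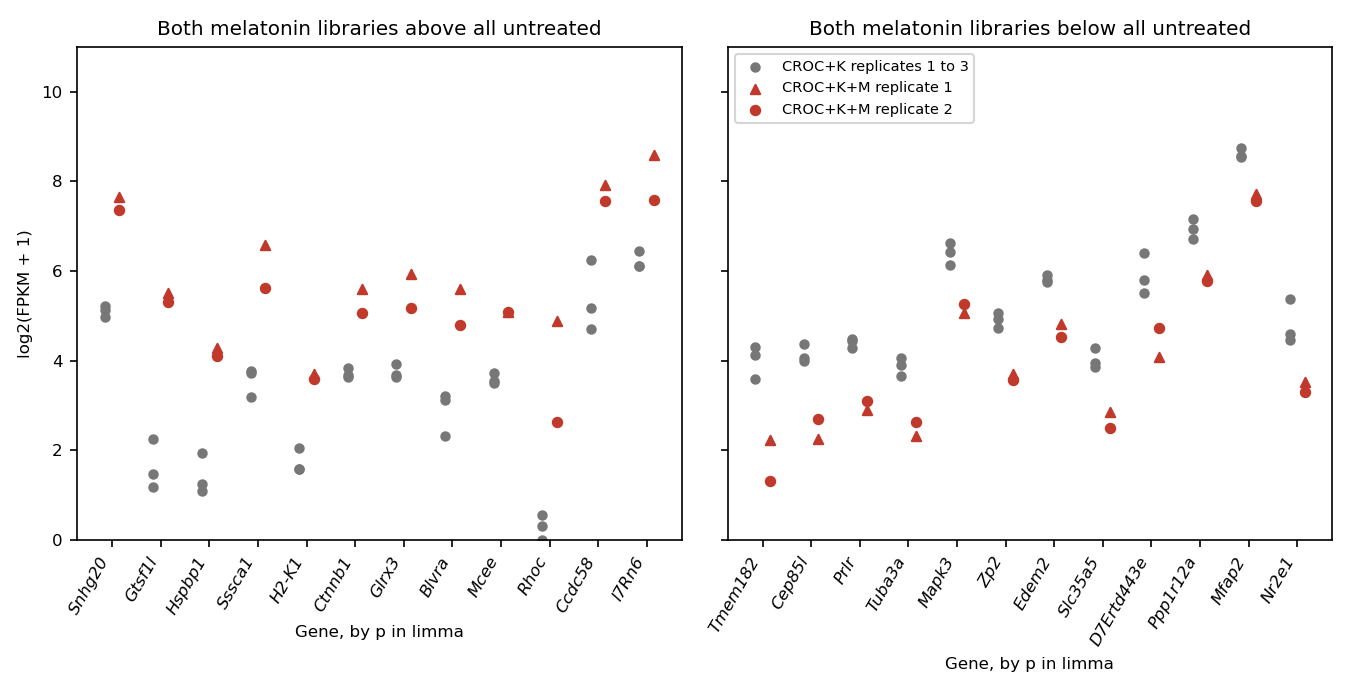
FPKM on a log2(FPKM + 1) axis for the leading higher and lower genes, 1 point per library. Both melatonin libraries lie beyond all 3 untreated ones in each gene, by a distance of 1.12 to 3.05 log2 units among the 12 higher genes shown and of 0.80 to 1.35 among the 12 lower ones, since the genes were chosen for that separation.

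Genes were next described by lists of known function, by counts and medians and with no test of the list; 0 members of any list passed the adjusted threshold. The nuclear genes of the respiratory chain and ATP synthase had the largest shares of separated genes of the 36 lists when both melatonin libraries were counted. Both melatonin libraries lay above all untreated ones in 22 of 37 genes of complex I, which takes electrons from NADH, in 17 of 25 of complexes II to IV and in 9 of 18 of ATP synthase, against 12.3% of all genes, and 0 of them lay below. Median differences were 1.67, 1.78 and 1.65, against 0.06 over all genes, and 0.78, 0.60 and 0.66 without the first melatonin library, against 0.03. The first melatonin library was above all untreated ones in all 80 genes, against 32.1% of all genes, and the second in 48 of the 80, against 25.9%, with 5 below all and 27 within their range. The median over the 80 genes was 1.46 with equal FPKM sums and 1.38 with quantile normalization.

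In the subunits named here the first melatonin library was the higher of the 2. Ndufa2, an accessory subunit of complex I, measured 197, 289.7 and 275 FPKM untreated and 732 and 506 with melatonin (1.28 ± 0.29, 1.01 without the first). Ndufs7, a core subunit that carries an iron-sulfur cluster, measured 4.55, 6.41 and 1.14 FPKM against 278 and 21.7 (4.16 ± 1.003, 2.35), the 2 melatonin libraries lying further from each other than the second did from the untreated ones. Cox7b, of complex IV, which reduces oxygen, measured 197, 139 and 119 FPKM against 1089.6 and 333 (2.01 ± 0.49, 1.16). Both melatonin libraries were thus above the untreated range of Cox7b, the first the more so. Sdhd, a membrane anchor of complex II, measured 7.84, 2.27 and 7.28 FPKM against 98.1 and 17.4 (2.78 ± 0.73, 1.56). Atpif1, the inhibitor of ATP hydrolysis by the synthase, measured 103, 98.3 and 69.4 FPKM against 494 and 239 (1.94 ± 0.38, 1.41), and Atp5k, the e subunit of the synthase, 457, 255 and 277 against 1745 and 781 (1.87 ± 0.41, 1.29).

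Nuclear respiratory factor 1 (NRF1) is known to bind the promoters of many respiratory genes. Of the subunits just named, Atp5k, Atpif1 and Sdhd are shown because their promoters hold a match to its motif; those of Ndufs7 and Cox7b hold none in the same window, and Ndufa2 was not matched to a RefSeq promoter. Each is the 250 bases before the annotated start on the minus strand, 5′ to 3′ in the direction of transcription, from RefSeq on GRCm38.p6, with a match to the NRF1 motif (GCGCA, any base, GCGC) in capitals.
Atp5k, chr5:108434400-108434649: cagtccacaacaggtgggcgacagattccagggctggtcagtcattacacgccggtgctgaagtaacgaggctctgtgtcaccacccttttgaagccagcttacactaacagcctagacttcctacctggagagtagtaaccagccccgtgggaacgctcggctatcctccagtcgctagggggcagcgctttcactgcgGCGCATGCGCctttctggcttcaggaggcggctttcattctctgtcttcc
Atpif1, chr4:132535415-132535664: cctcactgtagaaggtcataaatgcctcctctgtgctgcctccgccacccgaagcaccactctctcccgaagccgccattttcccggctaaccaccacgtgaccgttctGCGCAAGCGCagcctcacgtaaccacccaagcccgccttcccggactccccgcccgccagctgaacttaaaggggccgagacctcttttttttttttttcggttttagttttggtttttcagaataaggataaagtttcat
Sdhd, chr9:50603850-50604099: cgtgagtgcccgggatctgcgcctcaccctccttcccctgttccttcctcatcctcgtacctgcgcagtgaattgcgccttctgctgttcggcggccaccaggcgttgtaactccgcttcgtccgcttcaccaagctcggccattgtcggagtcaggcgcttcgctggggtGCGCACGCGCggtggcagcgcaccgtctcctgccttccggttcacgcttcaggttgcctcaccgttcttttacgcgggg
Over windows from 250 bases before to 50 after the start, searched on both strands, these letters occurred in 7 of 33 complex I genes with a RefSeq promoter, 4 of 18 of complexes II to IV, 6 of 17 of ATP synthase and 13 of 68 mitochondrial ribosomal protein genes. Of the 9888 tested genes with a promoter 10.6% held them, as did 11.6% of the genes with both melatonin libraries above all untreated ones, 8.28% of those with both below, and 4.78% of 27025 promoters in all. A match is a description of the sequence and not a measured binding site.

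The other mitochondrial lists varied. Their counts with both melatonin libraries are read against the 12.3% of all genes above and 11.2% below all untreated ones. Mitochondrial ribosomal proteins, which make the subunits encoded in mitochondrial DNA, lay above all untreated libraries in 27 of 77 genes and below in 0, with a median of 0.90 (0.33 without the first melatonin library). Mrps12 measured 53.9, 30.5 and 37.4 FPKM against 144 and 107 and Mrpl42 113, 92.6 and 116 against 904 and 244, so that the melatonin libraries were close in the former and far apart in the latter (1.63 and 2.13, 1.41 and 1.18 without the first). Genes of protein import into mitochondria lay above in 13 of 27 and below in 0, with medians of 0.84 and, without that library, 0.54. With the second melatonin library alone 15 of the 27 were above and 0 below, against 9 of 18 above and 2 below for ATP synthase. Over all genes 25.9% were above and 23.2% below with that library alone. Timm10, a chaperone of the intermembrane space, measured 48.4, 29.5 and 50.9 FPKM against 125 and 115 (1.503 ± 0.31, 1.45), and Tomm7, of the outer membrane translocase, 71.4, 86.4 and 78.7 against 413 and 173 (1.75 ± 0.38, 1.13). Genes of mitochondrial fusion, fission and biogenesis had 3 of 27 above and 2 below, no more than the shares of all genes. Their median of 0.15 turned negative under both sum and quantile scaling and was 0.15 under median ratio scaling. Vdac1, the outer membrane channel, stood at 94.03, 83.7 and 106 FPKM against 67.4 and 49.8 (-0.69 ± 0.27, -0.91), and the fusion GTPase Mfn1 at 8.51, 10.5 and 10.1 against 13.8 and 13.5 (0.46 ± 0.28, 0.44); in both genes the groups were separated by small margins. Glycolytic enzymes had 0 of 22 above and 2 below, with a median of 0.13 that was -0.19 without the first melatonin library. That median was also negative under sum and quantile scaling but 0.13 under median ratio scaling. Pgam1, phosphoglycerate mutase, measured 34.9, 18.7 and 17.3 FPKM against 9.19 and 9.93 (-1.15 ± 0.37, -1.10).

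**Figure D3:**
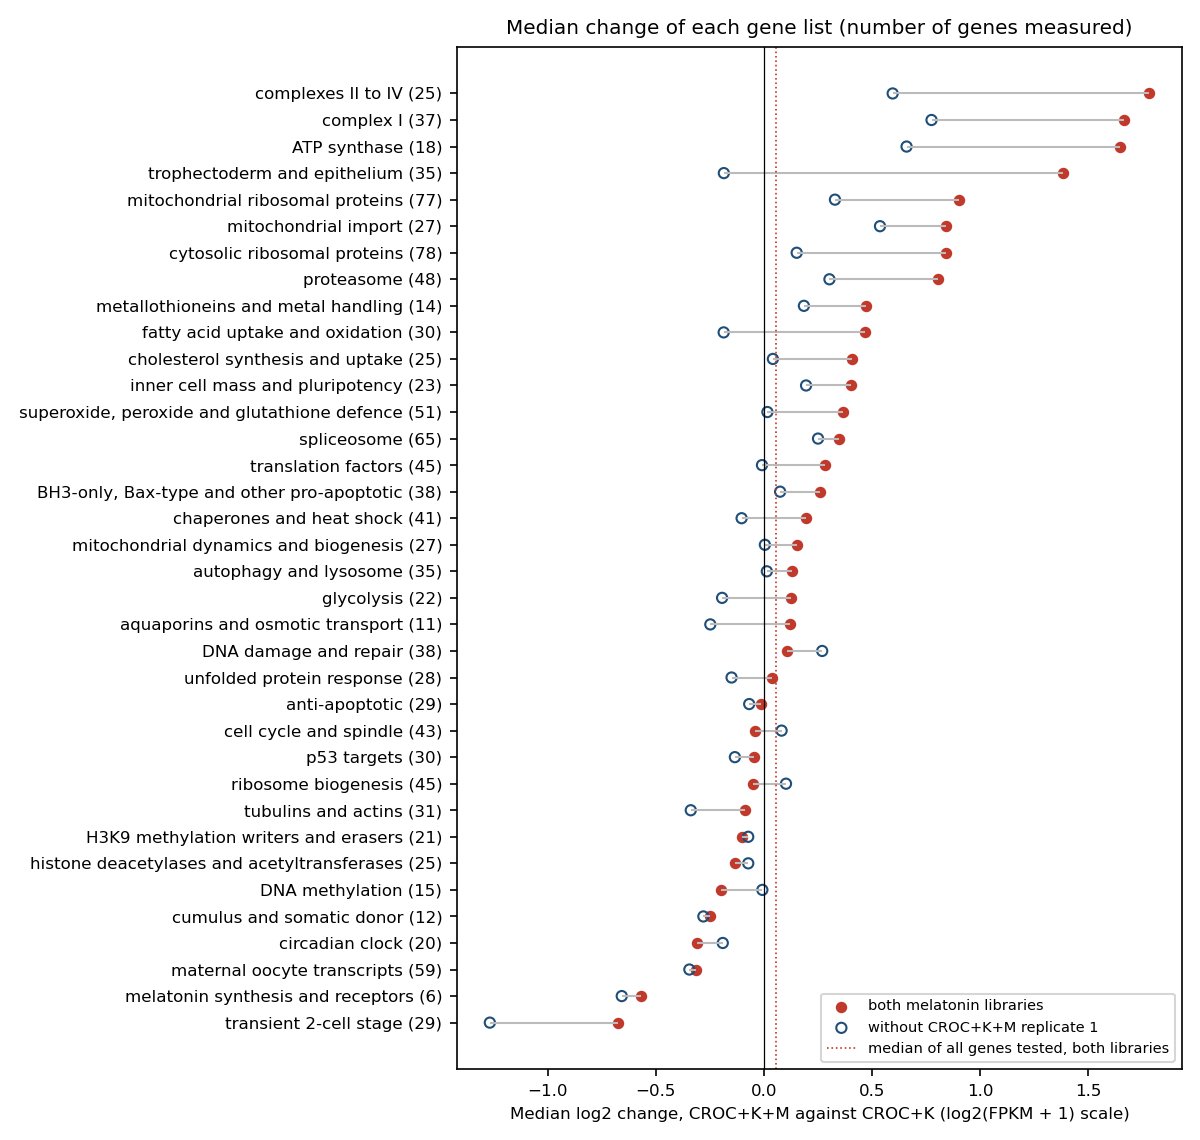
Median log2 difference (melatonin minus untreated, log2(FPKM + 1) scale) of each gene list with both melatonin libraries and with the second alone. The respiratory chain and ATP synthase lists stand at 1.65 to 1.78 with both and at 0.60 to 0.78 with the second alone, and the trophectoderm list goes from 1.39 to -0.18.

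Genes of protein synthesis and turnover varied by list. Their counts are read against the 12.3% of all genes above and 11.2% below all untreated libraries. Cytosolic ribosomal proteins were above all untreated libraries in 26 of 78 genes and below in 0, with a median of 0.84 that was 0.15 without the first melatonin library and 0.55 without the first untreated one. Many of these genes have near-identical pseudogenes that can share reads. Rpl38 measured 260.4, 386 and 279.7 FPKM against 1945 and 749 (1.99 ± 0.42, 1.30 without the first). Rpl22 measured 43.6, 39.3 and 31.1 against 100.0 and 83.5 (1.26 ± 0.29, 1.13), with the melatonin libraries closer to each other than in Rpl38. Translation factors had 10 of 45 above and 2 below (median 0.28, -0.01 without the first), among them Eef1e1 at 96.6, 66.1 and 75.4 FPKM against 255 and 139 (1.25 ± 0.33, 0.82) and Eef1g at 10.8, 5.15 and 6.64 against 107 and 12.8 (2.23 ± 0.78, 0.75). In both of these the first melatonin library was far above the second. Ribosome biogenesis genes of the nucleolus had 5 of 45 above and 7 below, a median of -0.05, and 0.10 without the first melatonin library; Nop10, of the pseudouridylation complex, measured 229.7, 341 and 379 FPKM against 624 and 563 (0.93 ± 0.29, 0.86), and Wdr12 11.5, 10.97 and 6.28 against 24.4 and 19.8 (1.16 ± 0.35, 1.01). Spliceosome genes, whose products remove introns, were above in 22 of 65 and below in 1, with medians of 0.35 and, without the first melatonin library, 0.25 (0.20 without the first untreated one). Hnrnpm, a splicing regulator, measured 8.68, 7.93 and 9.201 FPKM against 23.96 and 24.5, nearly the same in both melatonin libraries (1.39 ± 0.27, 1.41). Lsm4, of the U6 ring, measured 44.2, 30.2 and 37.9 FPKM against 146 and 81.8 (1.54 ± 0.34, 1.12).

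The proteasome had 11 of 48 genes above and 1 below, against 12.3% and 11.2% of all genes (median 0.81, 0.30 without the first melatonin library). Psme2, of the PA28 activator, measured 37.8, 39.8 and 26.99 FPKM against 114 and 79.2 (1.44 ± 0.33, 1.18), and Psmd14, the deubiquitinase of the lid, 43.8, 24.8 and 38.2 against 231 and 77.5 (1.92 ± 0.48, 1.14). In both, the melatonin libraries lay above the untreated range, Psmd14 much more so in the first. Chaperones had 5 of 41 above, near the share of all genes, and 2 below. Their median of 0.19 was -0.10 without the first melatonin library and 0.04 without the first untreated one. Besides Hspbp1 the list was represented by Ahsa1, an activator of Hsp90, which lay on the lower side at 325, 426 and 464 FPKM against 217 and 239 (-0.81 ± 0.26, -0.75). Of 28 genes of the unfolded protein response 0 were above and 1 below, Ppp1r15a (GADD34), which reverses the phosphorylation of eIF2 alpha, at 69.7, 132 and 120.2 FPKM against 45.98 and 54.3 (-1.03 ± 0.35, -0.92). Autophagy and lysosome genes had 6 of 35 above and 2 below (median 0.13, 0.01 without the first melatonin library); the groups of Atg4b, a protease of autophagosome formation, lay close at 9.22, 9.18 and 5.84 FPKM against 34.9 and 9.53 (1.12 ± 0.53, 0.24), and those of Atg5 at 119, 89.5 and 104 against 79.9 and 56.04 (-0.62 ± 0.27, -0.87). The medians of this list and of the unfolded protein response (0.04) were negative under sum and quantile scaling. Under median ratio scaling they were 0.13 and 0.04.

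Oxidative stress genes, which bear on melatonin as a radical scavenger, had more higher than lower means. Of 51 genes of superoxide, peroxide and glutathione defence, 36 had a higher and 15 a lower mean with melatonin (54.1% and 45.9% of all genes), 10 and 1 of them at an unadjusted p under 0.05 in limma (6.69% and 3.75% of all genes). In 9 genes both melatonin libraries lay above and in 6 below all untreated ones, against 12.3% and 11.2% of all genes. The median was 0.37 and kept its sign in all 20 alternatives, several of which could not move it. It was only 0.02 without the first melatonin library, where 27 members were higher and 24 lower. Besides Glrx3, Msrb2, a mitochondrial methionine sulfoxide reductase, was listed at 0 in all 3 untreated libraries and at 6.52 and 1.35 FPKM with melatonin. Metallothioneins and metal handling genes had 11 higher and 3 lower means of 14, with 4 above and 1 below all untreated libraries (medians 0.47 and, without the first melatonin library, 0.19). Atox1, a copper chaperone, measured 665, 711 and 679 FPKM against 1829 and 1153 (1.08 ± 0.28, 0.75), and Mt2, a metallothionein, 1264, 1956 and 1863 against 4833 and 2438 (1.04 ± 0.37, 0.55). These 2 genes were abundant in every library, and the second melatonin library exceeded the highest untreated one by less than the first did. The genes for melatonin receptors, Mtnr1a and Mtnr1b, were listed at 0 in all libraries, as was Rorb. In the melatonin list 6 genes were measured, 1 with a higher and 5 with a lower mean. Their median was -0.57, and -0.66 without the first melatonin library. Of the 6, 0 lay above all untreated libraries and 1 below. This was Ddc, aromatic amino acid decarboxylase, at 4.21, 3.67 and 4.43 FPKM against 1.71 and 1.82 (-0.88 ± 0.32, -0.86).

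The title of the series concerns apoptosis, whose genes are given here by role beside the 12.3% of all genes above and 11.2% below all untreated libraries; a difference between the roles was not tested. Pro-apoptotic genes had 5 of 38 above and 4 below all untreated libraries (median 0.26, 0.08 without the first melatonin library), and anti-apoptotic genes 3 of 29 above and 7 below (-0.01, -0.07). Dapk2, a death-associated kinase, stood at 10.2, 3.57 and 7.63 FPKM against 2.39 and 0 (-2.05 ± 0.66, -2.93), and its relative Dapk1 at 0.9401, 0.455 and 0.0883 against 2.66 and 1.57 (1.08 ± 0.39, 0.82), in opposite directions. Naip1, an inhibitor of apoptosis family member in a cluster of close paralogs that can share reads, measured 3.76, 3.31 and 3.23 FPKM against 0.295 and 0.807 (-1.53 ± 0.34, -1.29), and Tnfaip8 52.03, 66.1 and 49.03 against 33.6 and 32.1 (-0.73 ± 0.26, -0.76). Both of these anti-apoptotic genes were thus lower with melatonin. Targets of p53 had 2 of 30 above and 5 below (-0.04, -0.13). Their members differed in direction: Cdkn1a, which encodes the cell cycle inhibitor p21, measured 25.1, 15.6 and 14.3 FPKM against 52.03 and 34.6 (1.21 ± 0.34, 0.92), while Gadd45b, a stress-induced gene, measured 121, 81.6 and 98.6 against 42.00 and 51.6 (-1.08 ± 0.27, -0.93). The p53 list thus held members on both sides, each with separated libraries. DNA repair genes had 5 of 38 above and 5 below. Ogg1, the glycosylase that removes oxidized guanine, measured 3.64, 4.92 and 3.13 FPKM against 0.694 and 0.673 (-1.52 ± 0.35, -1.53), with the 2 melatonin libraries at one level, and the checkpoint kinase gene Chek1 123, 150.2 and 144 against 87.6 and 74.3 (-0.77 ± 0.24, -0.89). The median of the repair list, 0.11, was 0.27 without the first melatonin library. It was negative under sum and quantile scaling and 0.11 under median ratio scaling. Cell cycle genes had 0 of 43 above and 7 below, with a median of -0.04 (0.08 without the first), among them the cyclin genes Ccna2 at 318, 316 and 297 FPKM against 172 and 247 (-0.59, -0.32) and Ccnb1 at 767, 1211 and 1376 against 729 and 624 (-0.68, -0.80).

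Stored maternal transcripts of the oocyte lay on the lower side in both melatonin libraries. Of 59 genes 25 were below all untreated libraries and 0 above, against 11.2% and 12.3% of all genes, with a median of -0.31, of -0.34 without the first melatonin library and of -0.50 without the first untreated one. The second melatonin library alone was below all untreated ones in 29 of the 59 genes, against 23.2% of all genes. Besides Zp2, Oas1e, of an oocyte-expressed oligoadenylate synthetase family whose paralogs can share reads, measured 54.8, 69.9 and 75.8 FPKM against 37.04 and 29.3 (-0.98 ± 0.28, -1.15). The median was -0.56 with equal FPKM sums and -0.57 with quantile normalization; the median of all genes was -0.14 and -0.09 there.

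Genes of the transient 2-cell programme had 1 of 29 above and 2 below, against 12.3% and 11.2% of all genes, with a median of -0.67. This median depended on single libraries: it was -1.27 without the first melatonin library, -0.10 without the second, -1.67 without the first untreated library and -0.04 without the third. The untreated libraries differed widely in these genes, the first being low. Tdpoz4, of a family of near-identical copies, measured 23.3, 27.7 and 59.01 FPKM against 10.1 and 5.69 (-2.01 ± 0.52, -2.38), and Pramel7 27.9, 54.1 and 50.4 against 147 and 61.4 (1.14 ± 0.46, 0.52). Trophectoderm and epithelial genes had a median of 1.39 that was -0.18 without the first melatonin library. Of these 35 genes 5 lay above, near the share of all genes, and 2 below. Tead4, a transcription factor that acts before Cdx2 in trophectoderm formation, measured 2.04, 1.98 and 0 FPKM against 5.28 and 5.29, nearly the same in both melatonin libraries (1.59 ± 0.53, 1.59), and the tight junction gene Cldn6 10.8, 12.3 and 18.1 against 5.13 and 5.41 (-1.20 ± 0.36, -1.17). Pluripotency genes had 8 of 23 above and 1 below (median 0.40, 0.20 without the first melatonin library and 0.03 without the first untreated one). Zfp42 (Rex1) measured 14.7, 1.56 and 2.08 FPKM against 43.1 and 22.04, with the first untreated library well above the other two (2.68 ± 0.76, 2.21). Dppa5a, which is expressed in pluripotent cells and the early embryo, measured 325, 521 and 608 FPKM against 19491 and 1198, the first melatonin library being over 10 times the second (3.36 ± 1.002, 1.35).

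**Figure D4:**
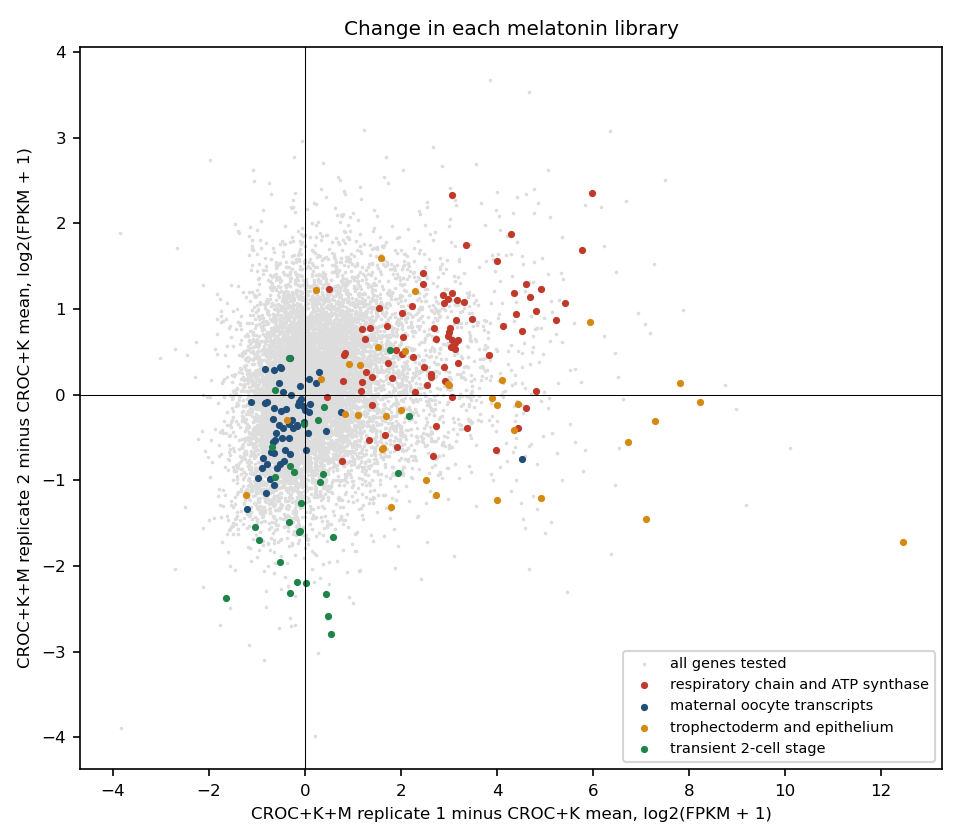
Difference of each melatonin library from the mean of the 3 untreated ones (log2(FPKM + 1) scale), the first on 1 axis and the second on the other, for the genes tested and the members of selected lists. Respiratory chain genes lie further out along the axis of the first library, where their median is 2.90, than of the second, where it is 0.64, and 50 of the 59 maternal genes have a mean difference below 0.

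Lipid genes were separated in shares near the 23.4% of all genes. Cholesterol synthesis and uptake had 5 of 25 above and 1 below (median 0.41, 0.04 without the first melatonin library), with Pmvk, phosphomevalonate kinase, at 1.43, 1.86 and 0 FPKM against 24.8 and 6.52 (2.87 ± 0.67, 1.98). Fatty acid uptake and oxidation had 7 of 30 above and 1 below (0.47, -0.19). Acadvl, very long-chain acyl-CoA dehydrogenase, measured 0.829, 0.839 and 2.47 FPKM against 5.68 and 4.13 (1.37 ± 0.42, 1.18), and the lipid droplet coat gene Plin3 4.204, 6.07 and 3.41 against 19.2 and 8.08 (1.31 ± 0.43, 0.73).

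Chromatin genes were read against the 12.3% of all genes above and 11.2% below all untreated libraries. Writers, readers and erasers of H3 lysine 9 methylation had 0 of 21 above and 3 below (median -0.10, -0.07 without the first), among them Cbx3, a heterochromatin protein 1 gene, at 24.9, 21.9 and 28.2 FPKM against 17.9 and 11.6 (-0.75 ± 0.32, -1.04) and the demethylase gene Kdm3a at 23.6, 24.6 and 29.7 against 13.7 and 20.5 (-0.59 ± 0.30, -0.32). DNA methylation genes had 0 of 15 above and 3 below (-0.20, -0.01), with Zfp57, which keeps methylation at imprinted regions, at 99.3, 77.9 and 82.7 FPKM against 51.3 and 39.6 (-0.92 ± 0.26, -1.10). Histone acetylation genes had 2 of 25 on each side. Of these Hat1, a histone acetyltransferase, measured 32.5, 34.9 and 30.7 FPKM against 383 and 37.04, a difference of 1.84 ± 0.82 that was 0.18 without the first melatonin library, and Kat2a 3.57, 6.27 and 4.96 against 6.99 and 8.88 (0.61 ± 0.36, 0.76).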

How the data were processed

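RNA of 7 pools was sequenced, and the authors deposited 1 table of FPKM per gene symbol and library. Per the submitters' processing notes, which name tools without their order, mm9, R 3.3.2, STAR 2.5.2b and Cufflinks 2.2.1 with Cuffnorm were used. The sources used here name neither the annotation nor any scaling between libraries, and hold no total counts, so no counting interval could be attached. Any length or amplification bias of the low-input cDNA kit would pass into FPKM.

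From 24319 genes, 1275 small RNA and ribosomal RNA precursor genes were left out of the tests, and genes with 1 FPKM or more in 2 or more libraries were kept (12272). Groups came from the sample titles. limma 3.58.1 (R 4.3.3) was fitted with an intensity trend to log2(FPKM + 1) of all 7 libraries, by group, with 4 residual degrees of freedom, two-sided, with Benjamini-Hochberg adjustment over all 12272 genes. Differences are melatonin minus untreated, ± SE. The script was tested on simulated data.

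Named genes were, per direction, the 12 with the smallest p and the 8 with the widest distance between groups among non-overlapping genes with a mean of 5 FPKM or more and no clone-type name; of each list, the 2 non-overlapping genes with the smallest p; and Kdm4a; 1 gene that the rule names is not reported here. The members, lists and rules were chosen with earlier results of these data known. Transcript lengths came from GENCODE M21 and matched 12165 of the tested genes; promoters came from RefSeq and matched 9888. Tables and plots used Python 3.11.15, pandas 2.3.3 and matplotlib 3.10.9. Replicate numbers were not taken as pairs: the labels do not say that they mark a shared source. Alternatives covered the pseudocount, the filter, scaling, moderation, weights, transcript length, the replicate block and leaving out each library.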

Additional observations from a re-analysis of the deposited data

How the results depend on the processing

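With 2 against 3 pools and 1 pool rich in trophectoderm transcripts, these data give values rather than calls. In limma, 0 genes passed the adjusted threshold under 19 of 20 alternatives, robust moderation and array weights included, and 658 did without the second melatonin library. Genes at an unadjusted p under 0.05 numbered 841 with the 5 libraries alone, 706 with the replicate block, and 845 to 2256 when each library was left out in turn (1997 without the first untreated, 2256 without the second melatonin, 846 and 845 without each fresh-oocyte library). The split of these genes was 476 higher and 744 lower with equal FPKM sums and 624 and 721 with quantile normalization. It was 813 and 460 with median ratio scaling. With array weights, which gave both melatonin libraries the same weight, it was 817 and 279. Genes above all untreated libraries numbered 942 with a filter of 5 FPKM, which left 7725 genes, and 822 with equal sums; leaving out a library of either group, which leaves fewer values to separate, gave up to 3937 (3177 without the first melatonin and 2838 without the first untreated library), from 1508. Genes below numbered 2072 with equal sums and up to 3144 from 1369 (2852 and 2688 likewise). Kdm4a reversed to 0.38 without the second melatonin library and ran from -1.69 to 0.38 over all libraries left out. The other named genes kept their direction in every alternative that tested them (the 5 FPKM filter tested 85 of the 92). They were chosen with both melatonin libraries beyond all untreated ones, so most alternatives could not reverse their direction. Only the scalings between libraries and the removal of the length trend could have done so. Of 36 list medians 21 kept their sign in all alternatives. Robust moderation, the 5 libraries alone and leaving out a fresh-oocyte library could not move a list median. The replicate block gave the same medians as leaving out the third untreated library. Equal FPKM sums and quantile normalization each changed 6 signs, and median ratio scaling changed 0. Without the first melatonin library 27 medians kept their sign, of which 14 were below 50% of their value. The replicate block changed no call; the deviations of same-numbered untreated and melatonin libraries correlated at -0.03 and 0.03. The depth of the libraries is unknown, so its limit on low genes could not be set.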

Other observations

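Of all genes 12.3% lay above and 11.2% below all untreated libraries, and the lists that follow are read against these shares. Circadian clock genes had 0 of 20 above and 1 below all untreated libraries, with a median of -0.31 (-0.19 without the first melatonin library); the 1 was Clock, at 18.8, 20.96 and 17.9 FPKM against 12.5 and 16.7 (-0.38 ± 0.27, -0.19). Genes of cumulus cells, the nuclear donors, had 1 of 12 above and 2 below (-0.25, -0.28). The 1 above was Amhr2, the receptor of anti-Müllerian hormone, at 2.704, 5.95 and 6.11 FPKM against 9.46 and 6.43 (0.63 ± 0.40, 0.39), and the lower ones included Nppc, a natriuretic peptide gene, at 12.6, 2.897 and 4.91 FPKM against 1.31 and 0.703 (-1.78 ± 0.64, -1.996). Aquaporins and osmotic transporters, relevant to vitrification, had 1 of 11 above and 2 below (0.12, -0.25). Their median was negative under sum and quantile scaling and 0.12 under median ratio scaling. The taurine transporter gene Slc6a6 stood at 3.53, 2.09 and 2.16 FPKM against 8.85 and 4.58. The glycine transporter gene Slc6a9 stood at 6.48, 6.97 and 9.57 against 5.18 and 4.04. Tubulins and actins had 2 of 31 above and 5 below (-0.09, -0.34, and 0.20 without the first untreated library), including Tubb2a at 58.8, 33.98 and 57.5 FPKM against 19.5 and 25.5 (-1.09 ± 0.34, -0.90).

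Differences moved with transcript length. In the shortest 20% of genes (143 to 1635 bases) 15.4% lay above and 8.21% below all untreated libraries, with a median difference of 0.23 and of 0.08 without the first melatonin library. In the longest 20% (4874 to 123179 bases) these were 9.21%, 14.1%, -0.05 and 0.01. The median transcript was 1046 bases in complex I, 1129 in complexes II to IV and 1076 in cytosolic ribosomal proteins, against 3018 over all tested genes. With the length trend removed, the median of the 80 respiratory chain and ATP synthase genes was 1.52 instead of 1.71. The part of transcript length in these differences was not otherwise tested.

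Further motifs were searched in the promoter windows on both strands, with overlaps between motifs kept. CCGGAAGT, of ETS factors, occurred in 832 of the 9888 tested genes with a promoter, in 150 of the 1246 with both melatonin libraries above and in 54 of the 1099 with both below. CACGTG, the E-box, occurred in 10.1%, 12.6% and 9.65% of the same sets. TGAC and GCA with 3 bases of any kind between them, the core of the antioxidant response element, occurred in 2.78%, 2.73% and 2.64%, and TAGGTCA, a site of ROR receptors, in 2.08%, 1.93% and 2.09%. These shares describe sequences and carry no test.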
